A study of Mus musculus with 42 samples.

Results

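The data described here come from 17 subcutaneous MC38 tumors, of 42 sequenced in the whole series, and compare tumors given antibodies against GM-CSF and the IL-2 receptor β chain on top of a PD-1 antibody (aPD1 + aGMCSF + aIL2RB, n = 11) with tumors given the PD-1 antibody without them (aPD1, n = 6). Members were chosen by column label alone, taking every replicate of both groups. MC38 is a mouse colon carcinoma line, and its cells were injected under the skin of female F1 mice (CC075/UncJ x C57BL/6J) aged 8 to 12 weeks. Blocking antibodies were dosed every 3 days from engraftment until the tumor measured 75 to 110 mm3, at 100 µg for aGMCSF and 200 µg for aIL2RB. By the study's methods, the aPD1 mice received isotype control antibodies on that schedule instead. All 17 mice then received 200 µg of aPD1, and the tumors were collected 48 h later. The aPD1 + aGMCSF + aIL2RB tumors are called double-blockade tumors from here on. Other tumors of the series serve as references below. They had isotype control antibodies and no aPD1 (n = 5), aPD1 + aGMCSF (n = 9) or aPD1 + aIL2RB (n = 11). Every host is the same F1 cross and every tumor the same cell line, so the values describe that cross and that line. Blocking antibodies preceded aPD1 in every double-blockade mouse, and double blockade without aPD1 was not analysed here.

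IL2RB is the chain shared by the receptors for IL-2 and IL-15, which signal through JAK1, JAK3 and STAT5 and maintain NK cells and effector CD8+ T cells. GM-CSF acts on monocytes, macrophages, dendritic cells and granulocytes through a specific α chain and the common β chain encoded by Csf2rb. PD-1 antibodies release T cells from inhibition, and in tumors that respond, T and NK cells secrete IFN-γ, which induces chemokines such as CXCL9 and antigen presentation in neighboring cells. The comparison asks what blocking both cytokine axes does to the tumor transcriptome seen after aPD1.

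Expected counts per tumor summed to between 15109184 and 24101643 in the aPD1 group (median 18302068) and between 7155464 and 22781372 in the double-blockade group (median 20036567), the lowest being replicate 4. The 5 ribosomal RNA genes took 4.57 to 17.9% of the counts in aPD1 tumors and 2.86 to 12.6% in double-blockade tumors. Levels are CPM, counts relative to the library size after TMM scaling, and a log2 fold change is the double-blockade group minus the aPD1 group. Replicates 1 to 6 of the double-blockade group and 1 to 3 of the aPD1 group are called lower-numbered, and replicates 7 to 11 and 4 to 6 higher-numbered. The place of this division comes from an earlier look at these data, in which the tumors divided along their replicate numbers, and the labels do not name it. A test on the division is therefore a description of these tumors, and values within each set stand beside the pooled ones. Double-blockade replicate 1 also stood apart: its Ptprc level (CD45, carried by all leukocytes) was 368 CPM, against 86.8 to 224 in the other 10 and 205 to 412 in aPD1 tumors. Ptprc itself was lower in the double-blockade group (log2 fold change -0.98 ± 0.20 (SE), edgeR adjusted p = 0.000278), at -0.34 among the lower-numbered replicates (adjusted p = 0.352) and -1.87 among the higher-numbered ones (adjusted p = 1.94e-08). The immune gene lists described here did not all follow Ptprc from tumor to tumor. Relative to the aPD1 mean of log2 CPM, Ptprc stood at 0.28 in replicate 1, the guanylate-binding protein list at 0.19 and the NK list at -1.05. The part of Ptprc in the changes of these lists was not tested. Shisal2b, which the study used to mark MC38 cells, was present in all 17 tumors, at a median of 14.8 CPM (range 8.8 to 21.4) in the aPD1 group and a median of 19.7 CPM (range 11.1 to 28.8) in the double-blockade group. Its difference did not pass the test (log2 fold change 0.39 ± 0.18, edgeR adjusted p = 0.0914), but it passed without aPD1 replicate 2, aPD1 replicate 3 or double-blockade replicate 1 (adjusted p = 0.0289, 0.0453 and 0.0347). These are whole tumors, so fewer cells of a type and less RNA per cell cannot be told apart. The labels do not say more than that replicates are separate tumors. The edgeR p-values rest on the spread between tumors within groups, estimated over all 42 tumors. In the pooled fit that spread includes the division between replicate sets.

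Of 16932 genes tested, 2215 were higher in double-blockade tumors (13.1%) and 2419 were lower (14.3%) at an adjusted p under 0.05. The changes were unequal in size. Lower genes had a median log2 fold change of -0.70 and higher genes one of 0.32, and 804 lower genes against 175 higher genes differed by over 2-fold. The double-blockade and aPD1 tumors did not overlap for 192 genes that were higher (1.13% of those tested) and 140 that were lower (0.827%). Within the lower-numbered replicates 639 genes were higher and 682 lower, and within the higher-numbered replicates 2425 and 2737. The 12 largest decreases, at a mean of at least 1 log2 CPM, were 4 granzyme genes, Il2rb, Gbp2b and 6 other genes of T and NK cells, and the 12 largest increases included receptors, adhesion proteins and noncoding RNAs of no common family. Scaling by library size alone shifted the balance to 3279 higher and 1879 lower genes.

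**Figure D1:**
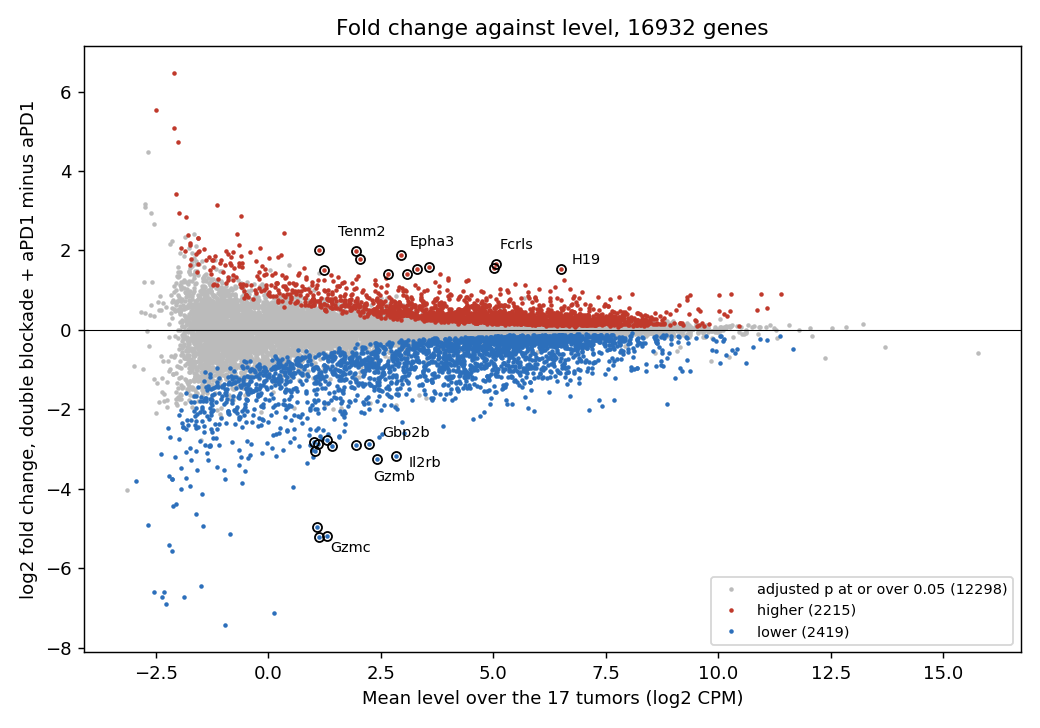
Each point is 1 of 16932 genes, with its mean level over the 17 tumors (log2 CPM) on the x axis and the log2 fold change of double-blockade tumors minus aPD1 tumors on the y axis; red points were higher and blue points lower at an adjusted p under 0.05, and black rings mark the 24 genes with the largest changes at a mean of at least 1 log2 CPM. The ringed decreases reach -5.22 (Gzmc), while the ringed increases reach 2.00 (Gm20431).

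**Figure D2:**
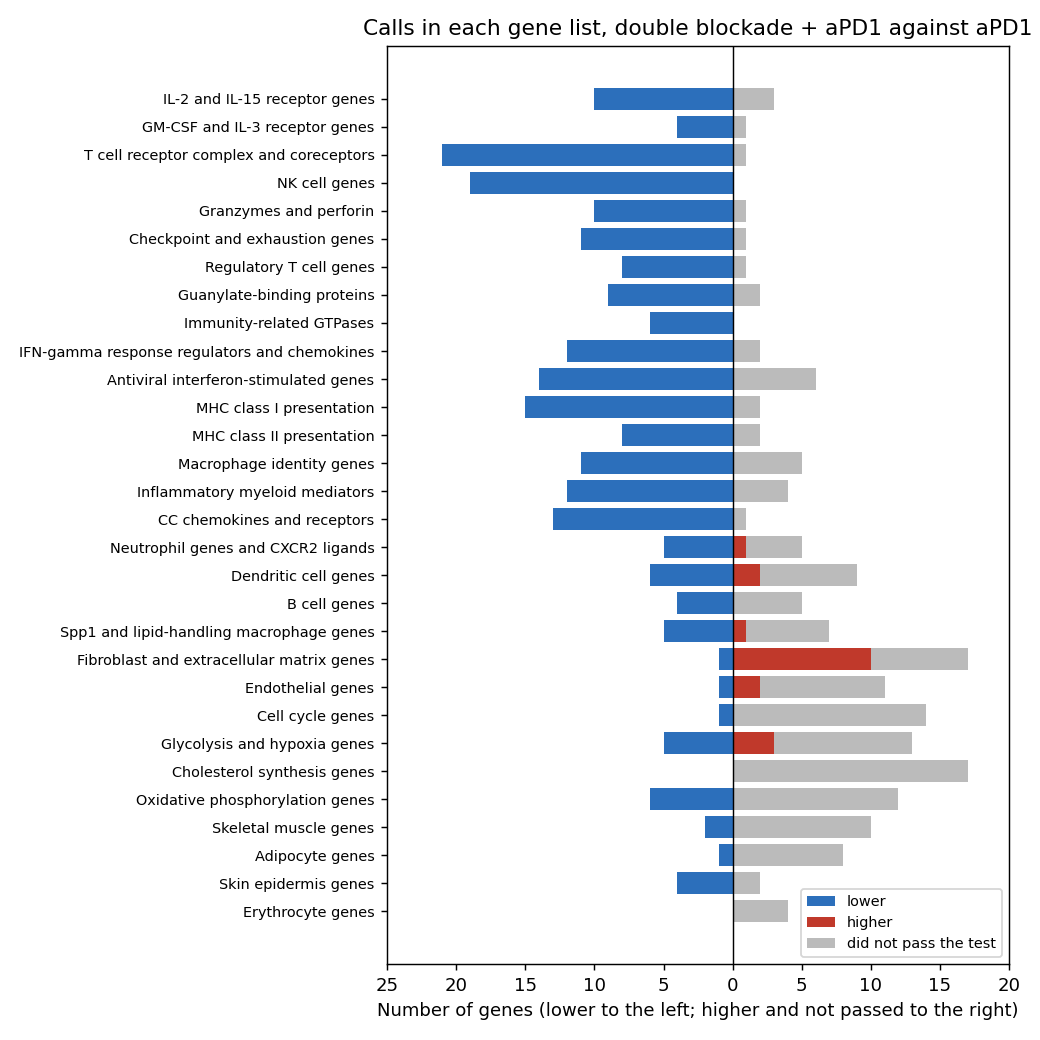
Bars give, for each gene list, the number of genes lower in double-blockade tumors (blue, to the left), higher (red) or not passing the test (gray, both to the right). All 19 NK cell genes and 21 of 22 T cell genes lie to the left, whereas the fibroblast and extracellular matrix list has 10 higher genes.

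Genes of the blocked IL-2 and IL-15 receptor axis were mostly lower. Il2rb (chr15:78479256-78495271, GRCm38), which encodes the chain bound by the blocking antibody, lay at a median of 38 CPM (range 30.4 to 62.4) in aPD1 tumors and a median of 2.99 CPM (range 0.623 to 19.2) in double-blockade tumors. The 2 groups did not overlap, the highest double-blockade tumor being replicate 1, and replicates 7 to 11 held only 0.623 to 1.4 CPM (log2 fold change -3.17 ± 0.47 (SE), edgeR adjusted p = 3.36e-06). Il2ra, the α chain of the high-affinity IL-2 receptor, changed by -1.81 ± 0.35 (adjusted p = 0.000127), and Il2rg, the γ chain shared with other cytokine receptors, by -1.44 ± 0.20 (adjusted p = 1.84e-06). Il15ra, which presents IL-15 to neighboring cells, differed less, from a median of 50.9 CPM (range 48.4 to 53.6) to a median of 39.1 CPM (range 30.9 to 53.1), with a log2 fold change of -0.35 (adjusted p = 0.00271). Neither Il2ra nor Il15ra passed among the lower-numbered replicates (adjusted p = 0.0569 and 0.224).

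Cish encodes a STAT5-induced suppressor of cytokine signaling. It was at a median of 5.95 CPM (range 3.22 to 8.26) in aPD1 tumors and at a median of 0.719 CPM (range 0.392 to 1.44) in double-blockade tumors, with every double-blockade tumor below every aPD1 tumor. Replicate 1, which had the highest Ptprc level of the 11, was at 0.786 CPM. The decrease (log2 fold change -2.92 ± 0.27 (SE), edgeR adjusted p = 4.5e-10) was -2.75 among the lower-numbered and -3.11 among the higher-numbered replicates, and the 2 did not pass a test of their difference (-0.36 ± 0.55, adjusted p = 0.754). In the list of IL-2 and IL-15 receptor and signaling genes, 10 of 13 tested members passed as lower and 3 did not pass, with a median log2 fold change of -0.35 against 0.01 over all genes tested. In the lower-numbered replicates 4 of the 13 passed as lower, and in the higher-numbered ones 10.

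For the GM-CSF axis, Csf2 itself, which encodes GM-CSF, was too low to test, at 0 to 13 counts in aPD1 tumors and 0 to 4 in double-blockade tumors. Its receptor genes were well expressed. Csf2rb (chr15:78325752-78353847), the common β chain, fell from a median of 73.7 CPM (range 52.8 to 97.7) to a median of 37.1 CPM (range 16.3 to 64.1) (log2 fold change -1.17 ± 0.19 (SE), edgeR adjusted p = 9.87e-06), with replicate 1 alone (64.1 CPM) inside the aPD1 range and replicates 7 to 11 lowest. Its neighbor and close copy Csf2rb2 (chr15:78282507-78305721), the β chain specific to IL-3, changed by -1.23 (adjusted p = 0.000188), and reads shared by the pair could be split between them. Csf2ra, the GM-CSF α chain, changed by -0.90 (adjusted p = 9.02e-05) and Il3ra by -0.72 (adjusted p = 0.00197). All 4 receptor genes were thus lower, while the fifth tested member, the kinase gene Jak2, did not pass. Of the 5, 1 passed within the lower-numbered replicates, Csf2rb, and the other 3 receptor genes did not (adjusted p = 0.0694, 0.187 and 0.446).

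NK cell genes were lower throughout. All 19 tested members of the NK list were lower, with a median log2 fold change of -2.90, and for 9 of them the groups did not overlap. Ncr1, which encodes the NK receptor NKp46, had 10 to 62 counts in the aPD1 tumors, at a median of 1.23 CPM (range 0.502 to 3.54), and 0 counts in 10 of the 11 double-blockade tumors, with 2 counts in replicate 6. Klrb1c, the NK1.1 antigen, ran from a median of 3.96 CPM (range 2.51 to 8.01) in aPD1 tumors to a median of 0.0513 CPM (range 0 to 0.367) in double-blockade tumors, none above 7 counts. Klra7, an inhibitory receptor of the Ly49 family, had 0 counts in all 11 double-blockade tumors and was at least 44.7-fold lower than in aPD1 tumors, taking a floor of 3 counts over the group. Txk, a Tec-family kinase of T and NK cells, was at a median of 3.34 CPM (range 2.31 to 5.52) and a median of 0.196 CPM (range 0 to 1.05) (log2 fold change -3.86 ± 0.52 (SE), edgeR adjusted p = 6.42e-07). Several of these genes are near 0 counts, so their fitted fold changes depend on the prior count. Of the 19 members, 13 were lower within the lower-numbered replicates and 18 within the higher-numbered ones. Klrc1, encoding the inhibitory receptor NKG2A of NK and CD8+ T cells, was at a median of 13.1 CPM (range 9.75 to 19.4) and a median of 0.392 CPM (range 0 to 11.1), with overlap.

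Granzymes, the proteases of cytotoxic granules, had the lowest median log2 fold change of the gene lists examined. Gzma was at a median of 8.2 CPM (range 3.02 to 12.9) in aPD1 tumors and at 0 counts in 9 of 11 double-blockade tumors, with at most 4 counts in the other two. Gzmc fell from a median of 25.4 CPM (range 10.1 to 68.1) to a median of 1.36 CPM (range 0 to 2.9) (log2 fold change -5.22 ± 0.55 (SE), edgeR adjusted p = 8.47e-09), Gzmd from a median of 24 CPM (range 5.25 to 87.4) to a median of 1.13 CPM (range 0 to 3.77), and Gzmf from a median of 33 CPM (range 11.2 to 120.5) to a median of 0.686 CPM (range 0 to 4.56). None of the double-blockade tumors reached the aPD1 range for these genes, and replicates 7 to 11 were at or near 0. Gzmg, from the same cluster on chromosome 14, was at a median of 20.7 CPM (range 2.95 to 94.8) and a median of 0.098 CPM (range 0 to 1.05). The genes of this cluster are close copies, so reads can be divided between them and their separate values are uncertain. Gzmb, the granzyme most used by CD8+ T cells and NK cells, behaved less evenly: it was at a median of 45.8 CPM (range 17.6 to 87) in aPD1 tumors and a median of 1.73 CPM (range 0 to 24.1) in double-blockade tumors, with replicates 1 and 4 (24.1 and 17.9 CPM) reaching the lowest aPD1 tumors (log2 fold change -3.25 ± 0.59 (SE), edgeR adjusted p = 5.44e-05). Among the lower-numbered replicates it did not pass (-1.63, adjusted p = 0.0772), and replicates 7 to 11 held 0 to 0.883 CPM (fitted log2 fold change -7.27, adjusted p = 8.28e-09). Nkg7, a cytotoxic granule membrane protein, changed by -2.93 (adjusted p = 6.5e-05). Of 11 tested genes of the granzyme and perforin list, 10 were lower and 1 did not pass, with a median log2 fold change of -3.96, and 6 of the 11 passed as lower within the lower-numbered replicates and 10 within the higher-numbered ones.

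T cell genes were lower as well, but to a degree that differed between tumors. Cd8a, the coreceptor of cytotoxic T cells, lay at a median of 29.9 CPM (range 23.7 to 48.2) in aPD1 tumors and a median of 3.25 CPM (range 0 to 25.6) in double-blockade tumors. Replicate 1 had 25.6 CPM, inside the aPD1 range, replicates 2 to 6 had 3.25 to 10.1 CPM, and replicates 7 to 11 had 0 to 1.2 CPM (log2 fold change -2.63 ± 0.51 (SE), edgeR adjusted p = 0.000127). Cd8b1, its partner chain, changed by -3.21 (adjusted p = 6.1e-06) without overlap between the groups. Lck, the kinase that starts T cell receptor signaling, was at a median of 17.9 CPM (range 15.5 to 23) and a median of 1.68 CPM (range 0.103 to 10.6), and Zap70, the kinase acting after it, at a median of 6.29 CPM (range 5.43 to 8) and a median of 0.784 CPM (range 0 to 3.56). For Cd3g, a chain of the receptor complex, the values were a median of 11.8 CPM (range 9.66 to 17.5) and a median of 1.23 CPM (range 0 to 9.33). Gimap3, a GTPase of lymphocyte survival, changed by -3.06 (adjusted p = 2.17e-06), and Ikzf3, the lymphocyte transcription factor Aiolos, by -2.87 (adjusted p = 1.69e-05). Of the 22 genes of the T cell list, 21 were lower and 1 did not pass, with a median of -2.53. 10 of the 22 passed as lower within the lower-numbered replicates and 21 within the higher-numbered ones. Without replicate 1 the count stayed at 21 of 22.

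Replicate 1 was singled out after its values were seen, and differences between the lists were not tested. The share of all genes below every aPD1 tumor is not given here, so the counts only describe it. It lay below every aPD1 tumor for 5 of the 22 T cell genes. The same held for 10 of the 19 NK cell genes and 6 of the 11 granzyme and perforin genes. In replicates 2 to 11 the corresponding counts ran from 18 to 22, from 17 to 19 and from 7 to 11. The T cell list summed to 183 to 337 CPM in aPD1 tumors, 62.4 to 199.8 CPM in replicates 1 to 6 and 26.3 to 42.1 CPM in replicates 7 to 11 of the double-blockade group. Its member Tcf7 was at 15.4 to 19.4 CPM in aPD1 tumors and 15.2 to 19.4 CPM in replicates 7 to 11. With Thy1, at 7.75 to 12.7 CPM in replicates 7 to 11, Tcf7 made up most of the sum there.

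**Figure D3:**
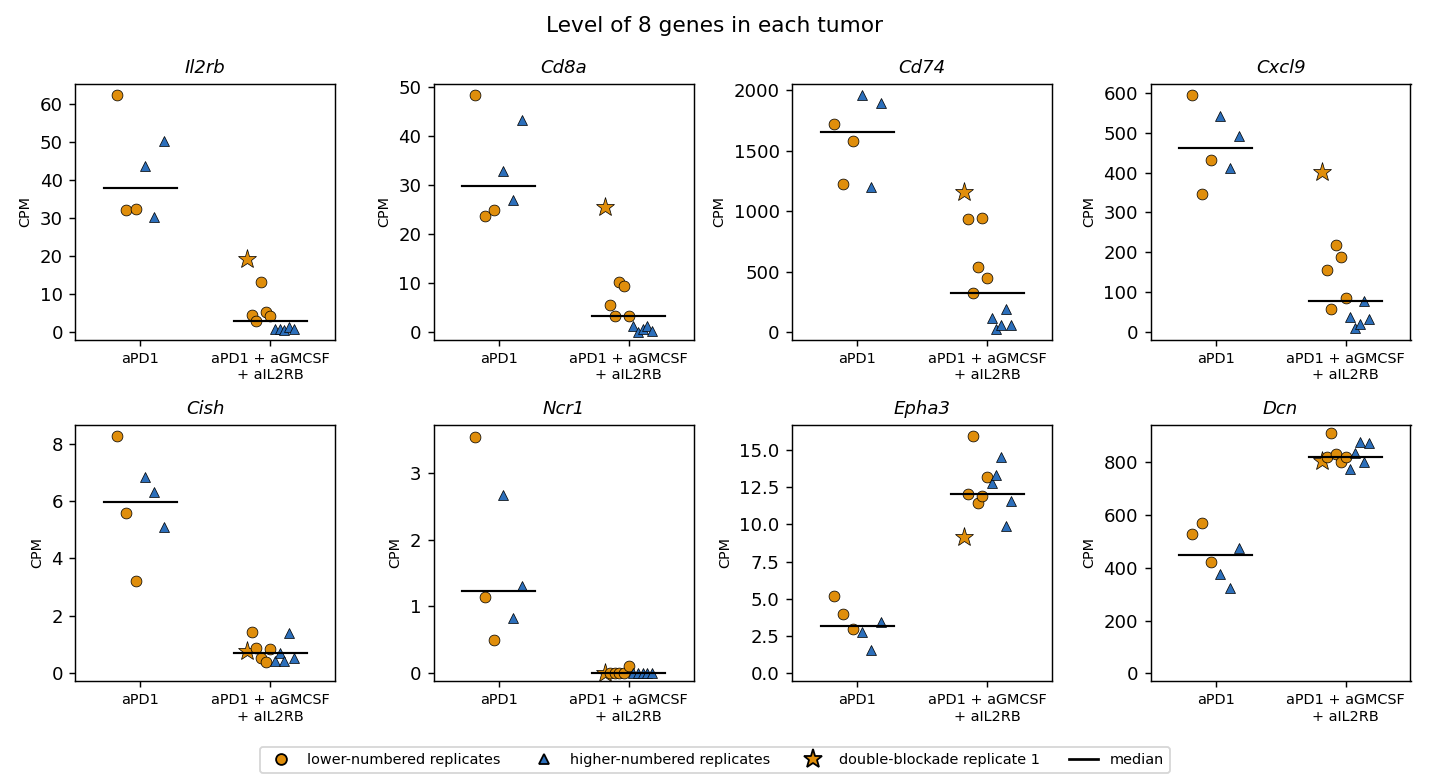
Each point is the level of a gene in 1 tumor (CPM, linear axis from 0) for the 6 aPD1 and 11 double-blockade tumors; circles are lower-numbered and triangles higher-numbered replicates, the star is double-blockade replicate 1, and the line is the group median. Replicate 1 sits with the aPD1 tumors for Cd8a (25.6 CPM) but with the other double-blockade tumors for Cish (0.786 CPM) and Ncr1 (0 CPM).

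Checkpoint and regulatory T cell genes were mostly lower as well. Both lists contain Ctla4, and their relation to the T cell genes was not tested. Of 12 checkpoint and exhaustion genes, 11 were lower (median -1.67). Pdcd1lg2, encoding the PD-1 ligand PD-L2, was at a median of 2.52 CPM (range 2.16 to 5.15) and a median of 0.12 CPM (range 0 to 1.31) without overlap. Tigit and Ctla4, inhibitory receptors of T cells, changed by -2.53 (adjusted p = 3.84e-05) and -2.35 (adjusted p = 0.000385). Of 9 regulatory T cell genes, 8 were lower (median -1.72), including the costimulatory receptor Tnfrsf9 (4-1BB), from a median of 16.8 CPM (range 14.7 to 24.1) to a median of 4.61 CPM (range 1.59 to 11.9), and the chemokine receptor Ccr8, from a median of 1.11 CPM (range 0.301 to 1.8) to a median of 0.147 CPM (range 0 to 0.339). Among the lower-numbered replicates, 5 of the 12 and 3 of the 9 passed.

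IFN-γ and the genes it induces were next. Ifng was at a median of 4.25 CPM (range 3.23 to 6.08) in aPD1 tumors and at a median of 0.363 CPM (range 0 to 3.25) in double-blockade tumors, where only the highest tumor reached the aPD1 range (log2 fold change -2.65 ± 0.53 (SE), edgeR adjusted p = 0.000175). Among 14 IFN-γ response regulators and chemokines 12 were lower (median -1.04). Cxcl9, the chemokine that draws CXCR3+ T cells, was at a median of 462 CPM (range 346 to 594) and a median of 78.4 CPM (range 9.96 to 401), with replicate 1 (401 CPM) inside and the other 10 below the aPD1 range (log2 fold change -2.01 ± 0.42 (SE), edgeR adjusted p = 0.000313). It did not pass among the lower-numbered replicates (-1.31, adjusted p = 0.0648), against -3.75 among the higher-numbered ones (adjusted p = 1.74e-07). Ciita, the master regulator of MHC class II, changed by -1.72 (adjusted p = 0.00124) and Ido1, a tryptophan-degrading enzyme, by -1.96 (adjusted p = 0.00643), and neither passed among the lower-numbered replicates (adjusted p = 0.122 and 0.125). All 6 tested immunity-related GTPases, which attack vacuoles of intracellular pathogens, were lower (median -1.27): Iigp1 by -1.34, Tgtp1 by -1.56 and Igtp by -1.25 (adjusted p = 0.00384, 0.00308 and 0.00123). Within the lower-numbered replicates 1 of the 14 regulators passed and none of the 6 GTPases, whose median log2 fold change there was -0.65, against -2.20 and 6 of 6 within the higher-numbered replicates.

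Guanylate-binding proteins are a second family of IFN-γ-induced GTPases, and 9 of 11 were lower (median -1.04). Gbp2b was at a median of 25.7 CPM (range 13.2 to 41.5) in aPD1 tumors and a median of 1.68 CPM (range 0.154 to 15.3) in double-blockade tumors (log2 fold change -2.87 ± 0.50 (SE), edgeR adjusted p = 3.05e-05), with replicate 1 alone (15.3 CPM) inside the aPD1 range. Gbp8 changed by -1.62 and Gbp5 by -1.30 (adjusted p = 0.000662 and 0.000343), and Gbp family members are near-copies whose reads can be divided. Of the 11 genes, 1 passed as lower among the lower-numbered replicates (median -0.53) and 10 among the higher-numbered ones (median -1.82). Gbp2b passed in both sets, while Gbp8 and Gbp5 did not pass among the lower-numbered replicates (adjusted p = 0.0887 and 0.176). Promoters are shown for the strongest guanylate-binding protein genes with an entry, for Cxcl9 and, beside them, for the granzymes Gzmc and Gzmd, which fell more. They are the 250 bases before the start in RefSeq (GRCm38.p6), written 5′ to 3′ on the gene's strand. Capitals mark GAAANNGAA, the core of an interferon-stimulated response element, and TTCNNNGAA, the gamma-activated site, each searched on both strands. Gbp2b lies at chr3:142594597-142594846, plus strand, Gbp5 at chr3:142496684-142496933, plus strand, Cxcl9 at chr5:92328080-92328329, minus strand, Gzmc at chr14:56234658-56234907, minus strand and Gzmd at chr14:56132594-56132843, minus strand.
Gbp2b: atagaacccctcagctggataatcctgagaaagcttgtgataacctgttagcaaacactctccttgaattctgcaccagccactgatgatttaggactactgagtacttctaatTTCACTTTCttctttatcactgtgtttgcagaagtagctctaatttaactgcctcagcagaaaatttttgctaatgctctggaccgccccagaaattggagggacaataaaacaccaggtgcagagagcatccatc
Gbp5: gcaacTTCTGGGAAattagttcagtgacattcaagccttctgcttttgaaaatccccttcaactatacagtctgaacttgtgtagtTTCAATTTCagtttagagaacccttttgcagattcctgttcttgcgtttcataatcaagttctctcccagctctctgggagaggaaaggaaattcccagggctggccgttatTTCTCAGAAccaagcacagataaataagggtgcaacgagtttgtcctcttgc
Cxcl9: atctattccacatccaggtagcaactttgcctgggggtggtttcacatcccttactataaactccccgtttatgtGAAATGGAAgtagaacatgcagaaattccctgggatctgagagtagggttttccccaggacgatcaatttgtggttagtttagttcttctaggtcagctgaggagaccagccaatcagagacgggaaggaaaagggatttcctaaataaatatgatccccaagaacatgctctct
Gzmc: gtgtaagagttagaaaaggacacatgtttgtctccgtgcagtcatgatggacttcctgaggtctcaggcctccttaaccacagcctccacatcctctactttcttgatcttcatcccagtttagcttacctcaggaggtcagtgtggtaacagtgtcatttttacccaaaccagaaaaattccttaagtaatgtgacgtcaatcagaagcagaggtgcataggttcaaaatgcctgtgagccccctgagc
Gzmd: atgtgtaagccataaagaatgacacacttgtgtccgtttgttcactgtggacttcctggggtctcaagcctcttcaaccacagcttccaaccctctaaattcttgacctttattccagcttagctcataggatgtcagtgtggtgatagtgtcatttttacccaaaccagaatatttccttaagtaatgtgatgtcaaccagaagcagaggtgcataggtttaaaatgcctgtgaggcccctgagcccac
GAAANNGAA was present in the promoters of all 5 guanylate-binding protein genes with an entry (of 11 in the list) and in 7.16% of the 27025 promoters of this length. In Gbp2b it began 136 bases before the start, in Gbp5 164 and in Cxcl9 175. TTCNNNGAA was in 2 of the 5 and in 7.18% of all promoters. Among the genes with the largest changes, GAAANNGAA was in 1 of 10 promoters of lower genes and 2 of 8 of higher genes, and TTCNNNGAA in 1 of 10 and 1 of 8. Neither was found in the Gzmc and Gzmd windows.

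Antigen presentation was lower in both classes. Of 10 tested MHC class II genes, 8 were lower, with a median of -1.62. Cd74, the invariant chain that escorts class II molecules, lay at a median of 1649 CPM (range 1201 to 1956) in aPD1 tumors and at a median of 319 CPM (range 24.8 to 1157) in double-blockade tumors, which did not overlap although replicate 1 (1157 CPM) came close to the lowest aPD1 tumor. Replicates 7 to 11 had 24.8 to 192 CPM. H2-Eb1 and H2-Ab1, class II β chains, changed by -1.92 (adjusted p = 0.00133) and -1.77 (adjusted p = 0.00221). In class I, 15 of 17 genes were lower by a smaller amount (median -0.47): the nonclassical class I gene H2-T23 by -1.18, the peptide transporter gene Tap1 by -0.80 and the immunoproteasome subunit gene Psmb9 by -0.70 (adjusted p = 0.000142, 0.000491 and 0.000154). Within the lower-numbered replicates 2 of 10 class II and 3 of 17 class I genes passed, and within the higher-numbered ones 9 and 16. Of the genes named here, none passed among the lower-numbered replicates (adjusted p = 0.0559 for H2-Eb1 to 0.316 for H2-T23).

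Antiviral interferon-stimulated genes moved differently against the 2 references. Relative to aPD1 tumors 14 of 20 were lower (median -0.56). Irf7, the transcription factor that amplifies type I interferon, was at a median of 121 CPM (range 52.4 to 198) in aPD1 tumors and a median of 44.4 CPM (range 39.2 to 131) in double-blockade tumors (log2 fold change -1.10, adjusted p = 0.000226), with replicate 1 at 131 CPM. Oasl1 changed by -1.18 (adjusted p = 7.19e-05), a member of the oligoadenylate synthetase family that senses double-stranded RNA. Relative to the 5 isotype control tumors, 11 of the 20 were higher in double-blockade tumors and the median was 0.61. Irf7 differed there by 0.84 (adjusted p = 0.0326). Across all genes 5.69% were higher and 4.51% lower than in isotype tumors. The test of a difference between the sets called 12 of the 20 genes. Among the higher-numbered replicates 17 of 20 passed as lower with a median of -0.97, against 1 of 20 and -0.03 in the lower-numbered ones. Irf7 and Oasl1 did not pass in the latter (adjusted p = 0.759 and 0.435). The aPD1 tumors differed between the sets for this list, which summed to 892 to 1363 CPM in aPD1 replicates 1 to 3 and 1666 to 2026 CPM in aPD1 replicates 4 to 6. The double-blockade medians were 991 CPM in the lower-numbered and 934 CPM in the higher-numbered replicates.

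Macrophage genes had a median nearer to 0 than the lymphocyte lists. Of 16 macrophage identity genes 11 were lower (median -0.68). Fcgr1, the high-affinity IgG receptor, was at a median of 141 CPM (range 91.2 to 209.7) and a median of 57 CPM (range 42 to 146) (log2 fold change -1.15 ± 0.19 (SE), edgeR adjusted p = 1.54e-05), and the complement C1q genes C1qa and C1qc, made largely by macrophages, changed by -0.95 and -0.99 (adjusted p = 4.71e-07 and 2.34e-07). Among inflammatory myeloid mediators 12 of 16 were lower (median -1.21). Acod1, which makes itaconate, fell from a median of 109.5 CPM (range 50.9 to 131) to a median of 13.1 CPM (range 3.43 to 84.9), with replicates 1 and 4 reaching the aPD1 range (adjusted p = 0.000239). F10, coagulation factor X, changed by -2.50 (adjusted p = 2.92e-05). Of 14 CC chemokine and receptor genes 13 were lower (median -1.19): the CCR4 ligand Ccl22 was at a median of 5.61 CPM (range 4.57 to 7.62) and a median of 0.712 CPM (range 0 to 2.25) without overlap, while Ccl8 changed by -1.78 and Ccl3 by -1.63 (adjusted p = 0.000622 and 0.0003). In the lower-numbered replicates 4 of 16 macrophage, 2 of 16 inflammatory and 2 of 14 chemokine genes passed as lower. Fcgr1, Acod1, Ccl8 and Ccl3 did not pass there (adjusted p = 0.193, 0.176, 0.17 and 0.186), while C1qa, C1qc, F10 and Ccl22 did.

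Of 12 lipid-handling macrophage genes 5 were lower and 1 higher, the angiogenic factor gene Vegfa, beside 14.3% lower and 13.1% higher over all genes. The sets gave 2 lower and 1 higher in the lower-numbered replicates and 8 lower in the higher-numbered ones. Over all 16932 genes the sets gave 682 lower and 639 higher, and 2737 lower and 2425 higher. No gene of the list was higher without double-blockade replicate 1 (0 higher, 6 lower), with DESeq2 (0 higher, 5 lower) or under the replicate block (0 higher, 4 lower), and Vegfa passed in neither set (adjusted p = 0.0708 and 0.565). Lpl, lipoprotein lipase, fell from a median of 24 CPM (range 16.9 to 47.5) to a median of 8.37 CPM (range 5.14 to 12.1) without overlap (log2 fold change -1.72 ± 0.22 (SE), edgeR adjusted p = 2.26e-07), and in both sets (-1.21 and -2.14). Lgals3, galectin-3, changed by -1.03 (adjusted p = 0.000213), and by -0.34 among the lower-numbered replicates, where it did not pass (adjusted p = 0.375). Spp1, osteopontin, was at a median of 204 CPM (range 147 to 313) and a median of 206 CPM (range 154 to 475) and did not pass (log2 fold change 0.21 ± 0.22, adjusted p = 0.533).

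The ratio of Cxcl9 to Spp1 counts, a measure of macrophage polarity followed by the study, was 1.51 to 3.03 in aPD1 tumors (median 2.33) and 0.039 to 2.01 in double-blockade tumors (median 0.28). The mean log2 ratio was 1.15 ± 0.39 (SD, n = 6) and -1.72 ± 1.88 (SD, n = 11), a difference of -2.87 (exact two-sided permutation test, p = 0.00323). Replicate 1 (2.01) alone lay inside the aPD1 range, replicates 2 to 6 had ratios of 0.28 to 1.15 and replicates 7 to 11 of 0.039 to 0.165. The difference was -1.72 within the lower-numbered replicates (exact permutation p = 0.0476) and -4.31 within the higher-numbered ones (exact permutation p = 0.0179, the smallest value 56 arrangements allow). Of its 2 genes, Cxcl9 passed the test and Spp1 did not.

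For neutrophil, dendritic cell and B cell genes the pooled counts are given beside the 13.1% higher and 14.3% lower over all genes. Over all 16932 genes, 639 were higher and 682 lower within the lower-numbered replicates, and 2425 and 2737 within the higher-numbered ones. Of 10 neutrophil genes and CXCR2 ligands, 5 were lower and 1 higher (2 and 1 in the lower-numbered replicates, 4 and 1 in the higher-numbered ones). Csf3r, the G-CSF receptor, fell from a median of 30.3 CPM (range 16.9 to 42.2) to a median of 10.6 CPM (range 4.14 to 28.3), and Cxcl3, a neutrophil-attracting chemokine, from a median of 3.11 CPM (range 0.36 to 5.64) to a median of 0.188 CPM (range 0 to 1.05) (adjusted p = 2.46e-05 and 0.000183), though Csf3r did not pass among the lower-numbered replicates (adjusted p = 0.11). Mmp9, a gelatinase made by neutrophils, macrophages and some tumor cells, rose instead, from a median of 179 CPM (range 103 to 264) to a median of 358 CPM (range 273 to 434) without overlap (log2 fold change 0.91 ± 0.18 (SE), edgeR adjusted p = 0.0002). Of 15 dendritic cell genes 6 were lower and 2 higher (Zbtb46 and Tlr3), with 0 lower and 0 higher in the lower-numbered replicates and 7 lower and 3 higher in the higher-numbered ones. Xcr1 and Batf3, a receptor and a transcription factor of the cross-presenting cDC1 subset, changed by -2.01 and -1.76 (adjusted p = 0.000316 and 0.00231), but neither passed among the lower-numbered replicates (adjusted p = 0.128 and 0.387). Zbtb46, a transcription factor of conventional dendritic cells that endothelium also expresses, was higher in every double-blockade tumor than in any aPD1 tumor (0.38, adjusted p = 0.000859), but did not pass among the lower-numbered replicates (0.30, adjusted p = 0.0772). Of 9 B cell genes 4 were lower (1 in the lower-numbered and 6 in the higher-numbered replicates), among them Igkc, the immunoglobulin κ constant region (-2.17, adjusted p = 0.00257, and 0.0772 among the lower-numbered replicates), in aPD1 replicate 3 at 10.4 CPM and in the other 5 aPD1 tumors at 4.1 to 5.94 CPM.

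The genes with the largest increases belonged to no single family. Epha3 (chr16:63543534-63864175), an ephrin receptor tyrosine kinase, rose from a median of 3.19 CPM (range 1.58 to 5.21) to a median of 12 CPM (range 9.17 to 16), every double-blockade tumor being above every aPD1 tumor (log2 fold change 1.89 ± 0.23 (SE), edgeR adjusted p = 1.99e-07). It was higher in both sets, by 1.61 among the lower-numbered and 2.23 among the higher-numbered replicates. Ncam2, a neural cell adhesion molecule, was likewise without overlap, at a median of 3.24 CPM (range 2.67 to 4.9) and a median of 9.08 CPM (range 5.53 to 11.9) (log2 fold change 1.42 ± 0.28 (SE), edgeR adjusted p = 0.000137). Tenm2, a teneurin adhesion protein, went from a median of 1.24 CPM (range 0.683 to 3.78) to a median of 6.56 CPM (range 3.09 to 10.8), with 1 aPD1 tumor above the lowest double-blockade tumor (log2 fold change 1.99, adjusted p = 4.02e-05). Kcne3, a regulatory subunit of potassium channels, was at a median of 1.67 CPM (range 1.43 to 3.06) and a median of 6.78 CPM (range 2.57 to 8.37) (adjusted p = 1.41e-07). Foxp2, a forkhead transcription factor, was at a median of 14.9 CPM (range 8.69 to 28.4) and a median of 49.7 CPM (range 27.6 to 64.2), and Bche, butyrylcholinesterase, at a median of 4.7 CPM (range 3.16 to 8.52) and a median of 14.9 CPM (range 7.12 to 20.7) (adjusted p = 1.5e-06 and 2.02e-06).

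Mest and H19, imprinted genes active in fetal tissue, rose by 1.57 (adjusted p = 2.3e-05) and 1.53 (adjusted p = 0.00295). H19, a long noncoding RNA, was at a median of 53.8 CPM (range 20.7 to 73.1) in aPD1 tumors and a median of 159 CPM (range 46.4 to 254) in double-blockade tumors. Fcrls, a scavenger-receptor-like protein of macrophages and microglia, was at a median of 18.3 CPM (range 10.7 to 26.7) and a median of 58.5 CPM (range 17.8 to 122), a direction opposite to the macrophage list (log2 fold change 1.67 ± 0.36 (SE), edgeR adjusted p = 0.000453). In replicates 7 to 11 H19 was at 120.0 to 254 CPM and Fcrls at 74.1 to 122 CPM, against 46.4 to 162 and 17.8 to 58.5 CPM in replicates 1 to 6. Within the lower-numbered replicates neither passed (log2 fold change 0.68 and 0.49), and the 2 sets differed by 1.83 (adjusted p = 0.0071) and 2.07 (adjusted p = 0.0101). Ip6k3, an inositol hexakisphosphate kinase, changed by 1.41 (adjusted p = 0.000157). The largest increase of those named, Gm20431 (2.00 ± 0.71, adjusted p = 0.0297), overlaps Tmem189 and Ube2v1 on the same strand, so its reads cannot be assigned with certainty, it passed in neither set (adjusted p = 0.0865 and 0.471), and the call was lost on leaving out any 1 of 6 tumors (aPD1 replicates 1, 2, 4 and 6 and double-blockade replicates 3 and 5; adjusted p up to 0.0698). Gm4524 (1.51, adjusted p = 0.00162) did not pass among the lower-numbered replicates (0.77, adjusted p = 0.267, against 2.75 and 2.59e-05 among the higher-numbered ones). It is annotated as antisense to P3h2, and whether counting used strand is not given in the sources used here.

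Genes of fibroblasts and extracellular matrix changed in both directions, with more members higher than lower. Of 18 fibroblast and matrix genes 10 were higher and 1 lower (the proteoglycan gene Bgn), with a median log2 fold change of 0.56, and for 5 of them the groups did not overlap. Dcn, the collagen-binding proteoglycan decorin, went from a median of 449 CPM (range 326 to 571) to a median of 821 CPM (range 774 to 913) (log2 fold change 0.89 ± 0.08 (SE), edgeR adjusted p = 4.5e-10). Fn1, fibronectin, rose from a median of 1373 CPM (range 1020 to 1545) to a median of 2479 CPM (range 2076 to 2872) (log2 fold change 0.91 ± 0.11 (SE), edgeR adjusted p = 1.03e-07), with 0.86 in the lower-numbered and 0.97 in the higher-numbered replicates. The fibrillar collagen gene Col3a1 was at a median of 1700 CPM (range 1568 to 2349) and a median of 3455 CPM (range 2617 to 4258), without overlap, and Col6a1, of the microfibrillar collagen VI, changed by 0.91 (adjusted p = 5.93e-05 and 7.92e-05). The type I collagen genes and periostin, which are also fibroblast products, did not rise: Col1a1 was at a median of 734 CPM (range 304 to 1280) and a median of 523 CPM (range 339 to 866), Col1a2 at a median of 540.4 CPM (range 247 to 892) and a median of 350.1 CPM (range 218 to 665), and Postn at a median of 115 CPM (range 83.2 to 212) and a median of 102 CPM (range 79.4 to 139). Their log2 fold changes of -0.52, -0.58 and -0.29 did not pass (adjusted p = 0.0764, 0.0565 and 0.128), but all 3 were lower among the higher-numbered replicates (-0.99, -1.05 and -0.58, adjusted p = 0.00906, 0.00975 and 0.0238). Bgn fell from a median of 129 CPM (range 64 to 185) to a median of 88.4 CPM (range 70.3 to 138) (adjusted p = 0.0236), and did not pass among the lower-numbered replicates (adjusted p = 0.746). In the sets, 7 of the 18 passed as higher within the lower-numbered replicates and 8 within the higher-numbered ones, where 5 others passed as lower. Without double-blockade replicate 1 the split was 8 higher and 3 lower. Of 12 endothelial genes, beside 13.1% higher and 14.3% lower over all genes, 2 were higher (Cdh5 and Emcn) and 1 lower (Eng): Emcn, the sialomucin endomucin, by 0.44 (adjusted p = 0.00505) and Eng, a TGF-β coreceptor, by -0.37 (adjusted p = 0.00411). The sets gave 2 higher and 0 lower endothelial genes among the lower-numbered replicates (median 0.34) and 0 higher and 4 lower among the higher-numbered ones (median -0.01). Over all 16932 genes the sets gave 639 higher and 682 lower, and 2425 higher and 2737 lower. Emcn did not pass among the higher-numbered replicates (adjusted p = 0.22), nor Eng among the lower-numbered ones (adjusted p = 0.748).

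For genes of proliferation and metabolism the pooled counts are given beside the 13.1% higher and 14.3% lower over all genes. Counts within the sets stand beside 639 higher and 682 lower of 16932 genes (lower-numbered) and 2425 and 2737 (higher-numbered). Of 15 cell cycle genes 1 was lower, the replication clamp gene Pcna, from a median of 208 CPM (range 193 to 215) to a median of 167 CPM (range 155 to 191) (log2 fold change -0.26, adjusted p = 0.00103), and the list's median was -0.03 (2 lower among the lower-numbered and 1 among the higher-numbered replicates). Of 18 glycolysis and hypoxia genes 5 were lower and 3 higher (Vegfa, P4ha1 and Ddit4; median -0.15): the glycolytic enzyme genes Gapdh and Ldha changed by -0.25 and -0.28 (adjusted p = 0.00136 and 0.0103), whereas Ddit4, a stress-induced inhibitor of mTOR, rose from a median of 22.7 CPM (range 16.1 to 33.2) to a median of 45.9 CPM (range 30.6 to 58.1) (adjusted p = 1.51e-05). Ldha did not pass among the lower-numbered replicates (adjusted p = 0.217) or when scaled by library size alone (adjusted p = 0.053). The list had 1 lower and 2 higher genes in the lower-numbered replicates and 8 lower and 1 higher in the higher-numbered ones, and P4ha1 did not pass in the latter (adjusted p = 0.402). Without double-blockade replicate 1 the split was 5 lower and 2 higher, and under the replicate block 2 and 2. Of 18 oxidative phosphorylation genes 6 were lower (median -0.09), with Sdhb, a subunit of succinate dehydrogenase, at a median of 63.5 CPM (range 54.7 to 65.9) and a median of 48.1 CPM (range 43.2 to 51.4) and no overlap, and Cox5a, of cytochrome c oxidase, at -0.32 on the log2 scale (adjusted p = 6.08e-07 and 0.0033). In the lower-numbered replicates 3 of the 18 were lower and in the higher-numbered ones 4 were lower and 1 higher. Cox5a did not pass among the lower-numbered replicates (adjusted p = 0.105).

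Markers of tissues beside the tumor varied by tumor, and their pooled counts are given beside the 13.1% higher and 14.3% lower over all genes. The sets gave 639 higher and 682 lower (lower-numbered) and 2425 and 2737 (higher-numbered) of 16932 genes. Skeletal muscle genes summed to 1.64 to 917 CPM in aPD1 tumors and 2.96 to 238 CPM in double-blockade tumors, with 2 of 12 lower (6 of 12 without double-blockade replicate 1), among them Actn3 (adjusted p = 0.00792, and 0.124 without aPD1 replicate 3). Of 9 adipocyte genes 1 was lower, Car3 (adjusted p = 0.00525, and 0.0639 without aPD1 replicate 3). Scd1 (191 to 278 CPM over the 17 tumors), a fatty acid desaturase gene, made up most of the list's sum. Car3 reached 44 CPM in aPD1 replicate 3. Adipoq, which encodes the fat cell hormone adiponectin, was at a median of 1.7 CPM (range 0 to 3) and a median of 0.343 CPM (range 0 to 1.56). Of 6 skin genes 4 were lower (4 in the lower-numbered and 0 in the higher-numbered replicates), including the keratins Krt5 (adjusted p = 0.00517, and 0.0901 without aPD1 replicate 2) and Krt14 (adjusted p = 0.00608), at sums of 3.79 to 34.9 and 3.36 to 7.13 CPM. Krt5 had 0 counts in 1 of the 6 aPD1 and 6 of the 11 double-blockade tumors. The part of these tissues in the changes of matrix and immune genes was not tested.

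The size of the change varied between double-blockade tumors. Across the 2419 lower genes, the median log2 difference from the aPD1 mean was -0.08 in replicate 1, -0.41 to -0.71 in replicates 2 to 6 and -0.66 to -0.89 in replicates 7 to 11. Across the 2215 higher genes, replicate 1 stood at 0.21 and the other 10 at 0.24 to 0.39. These genes were chosen on the same tumors, so the values only place the tumors relative to each other. The 2 sets differed inside the double-blockade group (6 against 5 tumors) for 2524 genes and inside the aPD1 group (3 against 3) for 42. With unequal numbers of tumors the 2 counts cannot be compared directly. The aPD1 sets did lie apart for the antiviral list, at 892 to 1363 and 1666 to 2026 CPM.

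**Figure D4:**
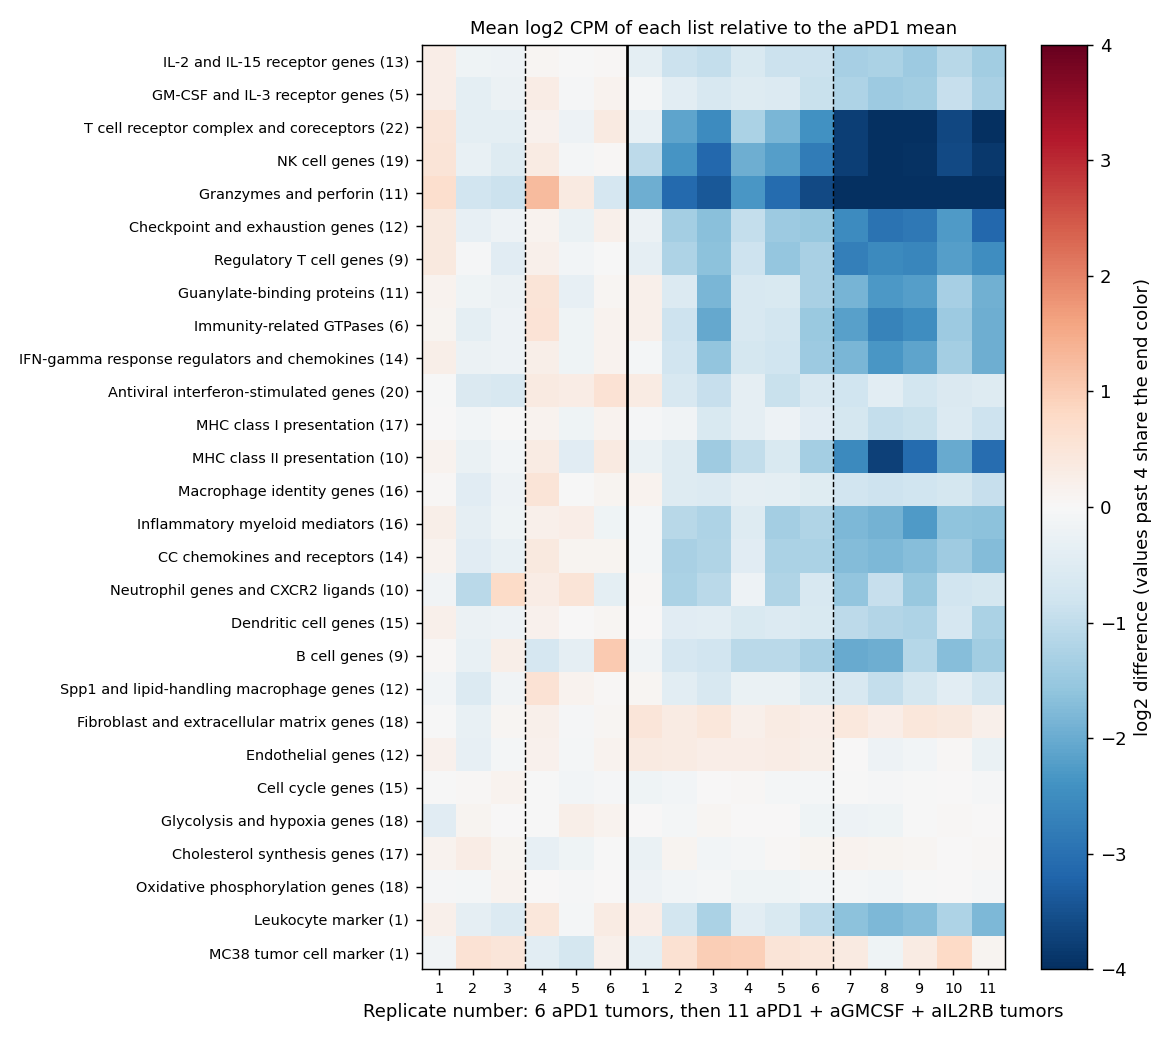
Each row is a gene list (number of genes tested in parentheses) and each column a tumor; color gives the mean log2 CPM of the list minus its mean in aPD1 tumors, a solid line parts the 2 groups and dashed lines the lower- and higher-numbered replicates. The T cell row reads -0.30 in double-blockade replicate 1 and -5.07 in replicate 8, while the fibroblast and matrix row reads 0.20 to 0.49 in the 11.

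A test of whether the change differed between the sets called 1554 genes, 445 with a more positive change in the higher-numbered replicates (2.63% of those tested) and 1109 with a more negative one (6.55%). The count rested in part on single aPD1 tumors, with 739, 792 and 1015 genes without aPD1 replicates 4, 2 and 3, and it was 763 when only these 2 groups were fitted. Of the 1109, 876 were also lower in the pooled comparison. The T cell list had 18 of 22 members among the 1554, the macrophage list 12 of 16 and the MHC class I list 10 of 17, against 1 of 18 for the fibroblast and matrix list. The 5 smallest p-values of each sign name the following genes. Sat1, which acetylates polyamines, had log2 fold changes of 0.01 among the lower-numbered and -0.89 among the higher-numbered replicates (adjusted p of the difference = 0.00013). Pltp, a phospholipid transfer protein, had values of 0.00 and -1.50, Cd300a, an inhibitory receptor of myeloid cells, of -0.33 and -2.15, Lgmn, the lysosomal protease legumain, of -0.12 and -1.09, and Arid5b, a DNA-binding cofactor, of 0.10 and -1.10 (adjusted p of each difference = 0.000496). None of the 5 passed among the lower-numbered replicates alone. Among more positive changes, Arxes2 went from -0.28 to 0.98, and Mrpl49 (a mitochondrial ribosomal protein), Ogfod1 (a prolyl hydroxylase), Mcm5 (of the replicative helicase) and Tpm1 (tropomyosin) differed by 0.52, 0.45, 0.44 and 0.58 (adjusted p at most 0.00126).

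Levels in the other 3 groups place these changes. They were isotype control (n = 5), aPD1 + aGMCSF (n = 9) and aPD1 + aIL2RB (n = 11), and each contrast below shares its double-blockade tumors with the others. Against isotype tumors, 963 genes were higher and 763 lower. Il2rb was at 15.6 to 23 CPM in isotype tumors, 13 to 27.5 with aPD1 + aGMCSF and 0.479 to 11.3 with aPD1 + aIL2RB. Double-blockade tumors were below isotype tumors (-2.04, adjusted p = 0.00839) and below aPD1 + aGMCSF tumors (-2.04, adjusted p = 0.00971), and the difference from aPD1 + aIL2RB tumors was 0.38 ± 0.45 (adjusted p = 0.887). Against isotype tumors 10 of 19 NK cell genes, 7 of 11 granzyme and perforin genes and 7 of 22 T cell genes were lower, while none of the 6 immunity-related GTPases or 11 guanylate-binding protein genes passed. Class I genes were lower in 13 of 17 cases.

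Against aPD1 + aGMCSF tumors, which lack the IL2RB antibody, 194 genes were lower (1.15%) and 166 higher. Of the lists, 10 of 19 NK cell genes, 5 of 11 granzyme and perforin genes and 3 of 22 T cell genes were lower. Ncr1 was at 0.486 to 1.42 CPM there and at 0 counts in all 11 aPD1 + aIL2RB tumors. Fn1 was higher in double-blockade than in aPD1 + aGMCSF tumors (0.45 ± 0.09, adjusted p = 0.00615), as was Epha3 (0.94, adjusted p = 0.0056). Against aPD1 + aIL2RB tumors, which lack the GM-CSF antibody, 1 gene in all was called (0.00591%), Tecpr2, named because it was the only call, which was higher by 0.27 (adjusted p = 0.0303). No gene passed as lower in edgeR's test, and at an unadjusted p under 0.05 581 genes were higher and 631 lower. Standard errors set the reach of that comparison: for Cd8a the difference was 1.10 ± 0.49, for Gzmc 0.11 ± 0.61, for Cish -0.89 ± 0.25, and for Csf2rb -0.12 ± 0.16. Each median below is against the same 6 aPD1 tumors. For the T cell list it was -1.25 with aPD1 + aGMCSF, -2.91 with aPD1 + aIL2RB and -2.53 with both, and for the NK list -1.10, -3.41 and -2.90. For the fibroblast and matrix list it was 0.30, 0.32 and 0.56.

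**Figure D5:**
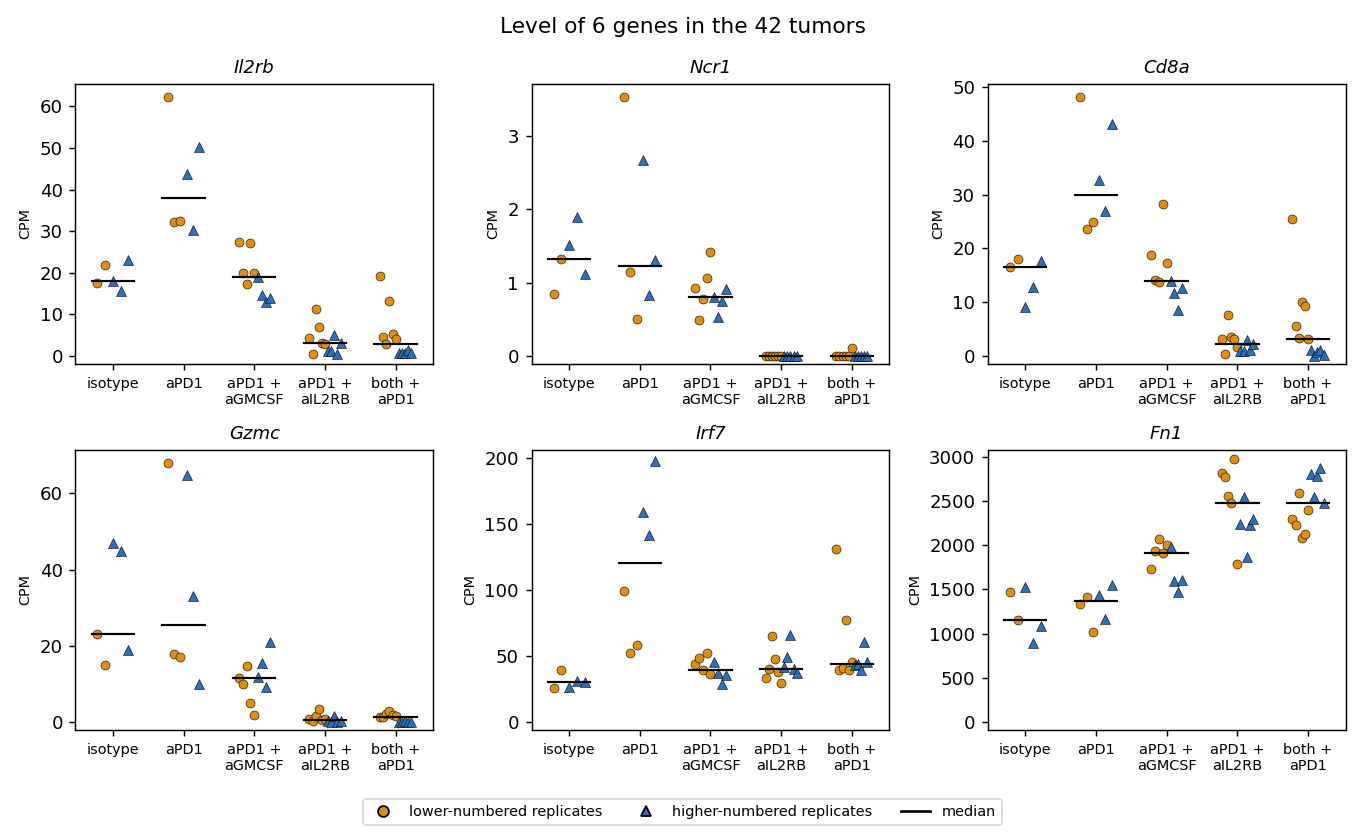
Each point is the level of a gene in 1 of the 42 tumors (CPM, linear axis from 0), by treatment group; circles are lower-numbered and triangles higher-numbered replicates, and the line is the group median. Ncr1 is at 0 in every aPD1 + aIL2RB tumor and in 10 of 11 double-blockade tumors, while Irf7 in double-blockade tumors (median 44.4 CPM) lies between the isotype (median 30.7 CPM) and aPD1 tumors (median 121 CPM).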

How the data were processed

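Bulk poly(A) RNA-seq was performed on 42 tumors, 1 library each. Reads were aligned to a strain-specific transcriptome built by g2gtools with Bowtie 1.2.3, and the authors deposited expected counts per gene estimated with GBRS, 26811 genes by tumor. Of the values 15.17% were not whole, and all were rounded before testing. Reads of close copies and of overlapping genes are divided by estimation, which makes their separate values uncertain. The differential tests of the authors used DESeq2.

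Here all 42 tumors were fitted together in edgeR 4.0.16 (R 4.3.3) by the quasi-likelihood test, with TMM scaling, 1 term per treatment group and genes kept by filterByExpr (minimum count 10, minimum total 15; 16932 genes). P-values were adjusted by Benjamini-Hochberg, with a threshold of 0.05. Depth was 7155464 to 24101643 counts per tumor in the groups compared. Levels printed as CPM carry no interval, and a count of 0 allows up to 3 counts, for counting error only. A second fit with group by replicate set, a division taken from an earlier analysis of these data, gave the within-set values and the test of their difference. No pair of tumors of 1 group agreed within sampling noise. The Cxcl9 to Spp1 ratio was tested by exact permutation with scipy 1.17.1.

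Named genes were the 12 higher and 12 lower genes with the largest change (adjusted p under 0.05, mean of at least 1 log2 CPM, same sign in both sets), up to 5 members per direction of each list, 11 genes of the blocked pathways and tumor markers, and 5 genes of each sign of the difference between sets. The text gives a selection of the list members, and Tecpr2, Bgn, Cdh5, Vegfa, P4ha1, Tlr3, Col1a1, Postn and Thy1 were named after their values were seen. Members and lists were chosen with earlier results of these data known. Promoters were 250 bases from RefSeq, and gene positions follow GENCODE on GRCm38. Same-numbered replicates of the 2 groups did not deviate together (correlations -0.05 to 0.10, 1 of 6 over 0.1), so the main fit holds no block. On simulated data for double blockade against aPD1 (16722 genes), the test recovered 85 of 100 genes changed by 2-fold and 99 of 100 changed by 4-fold and called 12 unchanged genes. The simulation changed only 200 genes, all above a minimum mean CPM, and equally in every double-blockade tumor. Genes near 0 counts and changes that differ between sets were therefore not covered by these figures. Alternatives were other scalings and filters, DESeq2 1.42.0, fits of the 2 groups only, each replicate set, a replicate block, and each tumor left out.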

Additional observations from a re-analysis of the deposited data

Results flagged for a closer look

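In 6 of 112 aPD1 groups of values tested for a single distant tumor, the highest of the 6 tumors lay apart from the rest, and chance alone flags about 1 in 20. The values were 3.06 CPM for Kcne3 and 6.36 CPM for Krt5 in aPD1 replicate 2, 4.90 CPM for Ncam2 and 8.01 CPM for Klrb1c in replicate 1, 10.4 CPM for Igkc in replicate 3 and 14.4 CPM for Ccl3 in replicate 6. The change from aPD1 to double blockade differed between the lower- and higher-numbered replicates for 1554 genes by edgeR's test of the difference itself.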

How the results depend on the processing

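The counts of higher and lower genes stayed within 1.5 times the main values under DESeq2, its size factors, library-size scaling, both filters, the fit of 2 groups, the set as a term and the higher-numbered replicates. Exceptions were the lower-numbered replicates (639 higher, 682 lower) and the replicate block (970 higher, 1189 lower), which used replicates 1 to 6 of each group; the cause was not tested. Scaling by library size gave 3279 higher and 1879 lower genes, 63.6% of calls higher against 47.8%, with a median over all genes of 0.08 against 0.01. Leaving out each tumor gave 1763 to 2474 higher and 1979 to 2682 lower genes. The number of genes whose change differed between sets was 763 with only the 2 groups in the fit, and 739 to 2162 on leaving out each tumor, with 792, 1015 and 739 without aPD1 replicates 2, 3 and 4; the cause was not tested. The difference in the log2 ratio of Cxcl9 to Spp1 was -3.15 to -2.58 with each tumor left out, and -1.44 under the replicate block (exact permutation p = 0.0312). Shared replicate numbers carried no pairing, and no tumor correlated best with its own number (0 of 6). Of 104 called genes named, 53 kept call and sign under every alternative run. Signs reversed for Spp1 (-0.16, block), Mrpl49 (-0.17, lower-numbered; -0.068, block), Arxes2 (-0.28, lower-numbered), Ogfod1 (-0.17, lower-numbered; -0.070, block), Mcm5 (0.088, higher-numbered), Sat1 (0.0078), Pltp (0.0037) and Arid5b (0.097), the last 3 lower-numbered. Tpm1 reversed to 0.0057 (library size), 0.25 (higher-numbered) and 0.012 (without aPD1 replicate 3), within a range of -0.114 to 0.012 over tumors left out. Depth was lowest in double-blockade replicate 4.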

Other observations

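None of 17 cholesterol synthesis genes passed in double-blockade against aPD1 tumors by edgeR's test (0 higher and 2 lower at an unadjusted p under 0.05; list median 0.0040), yet the replicate sets gave different counts. Within the lower-numbered replicates 3 were lower and none higher, and within the higher-numbered replicates 8 were higher and none lower. The test of the difference between sets called 9 of the 17. The list summed to 1443 to 1670 CPM in aPD1 replicates 1 to 3, 1032 to 1316 CPM in aPD1 replicates 4 to 6 and 1142 to 1493 CPM over all double-blockade tumors. Against the isotype tumors 9 of the 17 were lower.

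Of 4 tested erythrocyte genes none passed in the pooled comparison (0 in either direction at an unadjusted p under 0.05), while 4 were lower within the lower-numbered and 2 higher within the higher-numbered replicates. Single tumors lay far from the rest in both sets. Among the lower-numbered replicates, their sum was 653 CPM in aPD1 replicate 3 and 13.7 and 24.1 CPM in the other aPD1 tumors, against 18.3 to 40.03 CPM in double-blockade tumors. Among the higher-numbered ones it was 40.9 to 189.7 CPM in aPD1 tumors and 68 to 960.2 CPM in double-blockade tumors (median 78.9), the highest being replicate 11.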
